A study of Brassica napus with 18 samples.

Results

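Chromosome A10 and the last part of chromosome C09 of oilseed rape (Brassica napus) were examined together. The members were taken by identifier: every gene model whose name begins BnaA10T, and every model beginning BnaC09T with a running gene number above 3000. This gave 3262 models on A10, with gene numbers 1 to 3021, and 3473 on C09, with gene numbers 3001 to 6245. Together they are 6735 of the 107233 gene models measured. The gene number is the only position the identifiers carry, so every stretch is given in gene numbers along its chromosome. The identifiers had 0 matches in the name table used, so single members go without a gene symbol or role, and no marker gene of the shoot apex could be checked.

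Poly(A)-selected RNA was sequenced from shoot apices of field-grown plants of 6 accessions, with 3 libraries each. For BnaC3.LFY, a copy of the floral meristem identity gene LEAFY on another chromosome, haplotype 1 is that of R5044, R5159 and R5161. Haplotype 2 is that of R4168, R4210 and R4817, and the study set the 2 haplotypes against each other. Because each haplotype is represented by its own 3 accessions, a haplotype difference cannot be told apart from any other difference in their genetic background. The labels give no treatment, no sampling time or plant age, and no word on whether the 3 libraries of an accession are separate plants. The spread that p-values over libraries rest on is thus only that of these samples, and it may be technical. Total counts per library ranged from 21960992 to 41459636.

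Oilseed rape is an allotetraploid: its nucleus holds an A subgenome from a turnip-like parent and a C subgenome from a cabbage-like parent. Most genes thus come as an A copy and a C copy, called homoeologues, and the long lower part of C09 is the homoeologous partner of A10. When homoeologous chromosomes recombine, a segment of one can be replaced by the matching segment of the other, which is known as homoeologous exchange and is common near chromosome ends in this species. In a transcriptome, such a replacement is known to leave genes of one copy without reads over adjoining positions while the partner copies gain. DNA of these accessions was not analysed here, and whether an exchange, a deletion or poor alignment to a divergent copy lies behind any stretch described was not tested. A10 is also known for a copy of FLC, a repressor of flowering that cold silences.

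The summed counts of A10 and of the C09 end were nearly equal in all 6 accessions. The counts of A10 summed to 35648 ± 662 CPM (counts per 1000000 of the library's total; SD, n = 3 libraries) in R5044, 34213 ± 509 in R5159, 33640 ± 276 in R5161, 34638 ± 318 in R4168, 35704 ± 186 in R4210 and 35804 ± 312 in R4817. The C09 end summed to 33988 ± 642 CPM in R5044, 34484 ± 458 in R5159, 35131 ± 243 in R5161, 32407 ± 406 in R4168, 34746 ± 167 in R4210 and 34527 ± 508 in R4817. R4168 had the lowest level on the C09 end, at 32875 CPM or less in each of its 3 libraries, while every other library had 33339 or more. Both regions together held 6.90% ± 0.0522 of all counts in haplotype 1 and 6.93% ± 0.193 in haplotype 2 (SD of 3 accession means; two-sided exact permutation p = 0.9).

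The A to C balance lay close to equality. A10 took 51.2% ± 0.0139 of the counts of both regions in R5044, 49.8% ± 0.202 in R5159, 48.9% ± 0.051 in R5161, 51.7% ± 0.148 in R4168, 50.7% ± 0.219 in R4210 and 50.9% ± 0.586 in R4817 (SD, n = 3 libraries). R5161 was the accession with the least A10 and R4168 the one with the most. By haplotype the share was 49.97% ± 1.15 against 51.1% ± 0.515, with an exact two-sided permutation p of 0.3, where 0.1 is the smallest that 3 against 3 accessions allow. The difference of 1.11 percentage points was within the spread of the accessions, and it changed sign, to 0.46 points higher in haplotype 1, when the 10 most abundant genes of each region were left out. Counts are not corrected for gene length and reads of similar A and C copies may have been shared between them, so these shares compare accessions and not the copies of a gene.

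More genes were detected in haplotype 2, on both chromosomes. At 1 CPM or more, 1481 ± 12.7 models of A10 were found in haplotype 1 and 1535 ± 31.2 in haplotype 2, and 1425 ± 18 and 1478 ± 20.2 models of the C09 end (SD of 3 accession means). Each of these comparisons had an exact two-sided permutation p of 0.1, the smallest possible here. The same count over all chromosomes is not given, so the difference cannot be called particular to these regions. Library totals were 25849576 to 41459636 in haplotype 1 and 21960992 to 32241484 in haplotype 2, and an effect of depth was not tested. On A10, 1259 models reached 1 CPM in the mean of every accession, 538 in some accessions and 1465 in none. On the C09 end the numbers were 1219, 500 and 1754. The filter on low counts kept 1993 A10 models (61.1%) and 1930 C09 models (55.6%), against 55.6% of the models on all 19 chromosomes.

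Along A10 the lowest full window was 701 to 800, where 18 of 105 models passed the filter and the window held 136 CPM (median of 6 accessions). The partly filled last window, 3001 to 3021, held 68.4 CPM. The highest was 2501 to 2600, at 2006 CPM. Along the C09 end the lowest full windows were 3101 to 3200, at 278 CPM, and 3401 to 3500, at 289 CPM. The highest was 5601 to 5700, at 1964 CPM. The order of high and low windows was nearly the same in all accessions, as the plot of summed levels shows. Single abundant genes set some of these peaks: 1 gene held 51.8% of the counts of C09 4301 to 4400, and 1 gene 49.3% of those of A10 1501 to 1600.

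**Figure D1:**
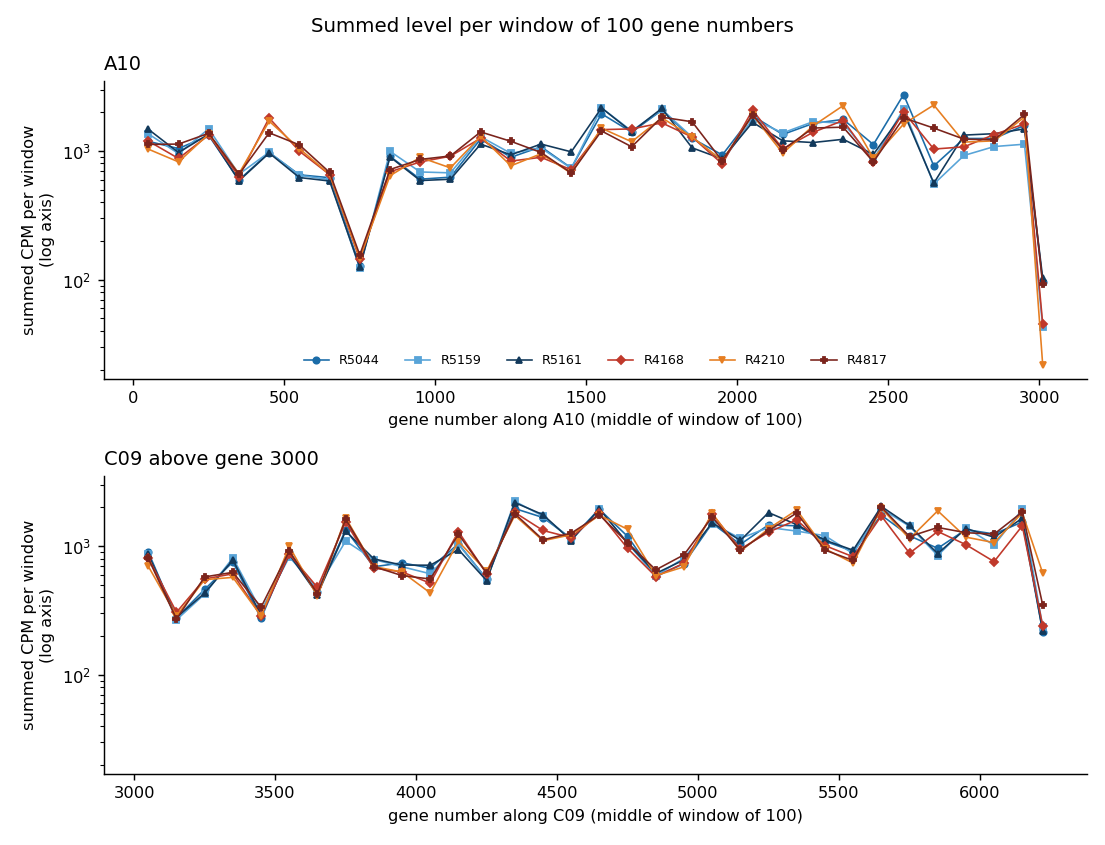
Summed CPM (log axis) of each accession, mean of 3 libraries, in windows of 100 gene numbers along A10 (top) and C09 above gene 3000 (bottom). The 6 lines run close together, with the dip at A10 701 to 800, and they part at A10 2601 to 2700 and at the last, partly filled windows, where R4210 has 21.7 CPM on A10 and 617 CPM on C09.

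Gene by gene, differences between accessions were called in most members. Any difference among the 6 accessions was called by edgeR's quasi-likelihood F test (Benjamini-Hochberg adjusted p under 0.05) in 1563 of 1993 A10 models (78.4%) and 1290 of 1930 C09 models (66.8%), where 73.2% of all tested models were called. The difference between these shares was not tested. R4210 differed most often from the other 5, in 998 A10 models (50.1%) and 852 C09 models (44.1%), with 47.4% over all models. R5044 differed least often, in 735 A10 models (36.9%) and 481 C09 models (24.9%), with 33.7% over all. R5159 differed in 883 and 697 models (41.7% over all), R5161 in 906 and 747 (42.4% over all), R4168 in 779 and 637 (36.6% over all) and R4817 in 812 and 744 (40.2% over all). For each of the 6 accessions the share called was higher on A10 than on the C09 end.

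Haplotype calls on the members stayed near their background. With the accession as replicate, edgeR called 131 of 1968 A10 models higher in haplotype 1 and 157 lower at an adjusted p under 0.05. On the C09 end 130 of 1902 were higher and 146 lower. Over all models 13.7% were called, 6.13% higher and 7.57% lower, and the members' shares were 14.6% on A10 and 14.5% on C09. The median log2 fold change was 0.06 on A10, 0.00 on the C09 end and -0.03 over all tested models. The accession means of the haplotypes did not overlap in 425 A10 models that were higher in haplotype 1 and 421 that were higher in haplotype 2, and in 430 and 465 C09 models, where 43.3% of all models were separated in this way. The number of calls fell when any accession was left out: the 564 calls on both regions became 30 in a fit without R4210. Such a fit also has fewer accession sums, so lost power cannot be told apart from dependence on an accession.

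The members with the largest haplotype differences were on or off in one haplotype. BnaC09T0603200ZS was the model with the highest fold change in favour of haplotype 1. It had 16.2, 10.9 and 15.8 CPM in R5044, 33.0, 17.9 and 17.8 in R5159 and 32.1, 20.6 and 31.2 in R5161. In all 9 haplotype 2 libraries it had 0 counts, so the groups did not overlap. Against a floor of 3 counts over those libraries it was at least 1735-fold higher in haplotype 1 (edgeR adjusted p = 0.0107). BnaA10T0095200ZS had 4.82, 6.07 and 5.11 CPM in R5044, 34.2, 35.7 and 14.8 in R5159 and 4.25, 4.85 and 5.07 in R5161, against 0 to 0.193 in haplotype 2. Its fold change was 7.47 on the log2 scale (edgeR adjusted p = 0.0166), and R5159 stood above both other haplotype 1 accessions. The call was lost without R4210 or without R4817 (log2 fold changes 7.38 and 7.47).

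In the other direction, BnaA10T0205600ZS had 13.9, 25.3 and 22.7 CPM in R4168, 30.2, 43.2 and 36.7 in R4210 and 18.2, 32.5 and 28.2 in R4817. The haplotype 1 libraries held 0 to 0.772 CPM, so no library of one haplotype reached the other (log2 fold change -7.55, edgeR adjusted p = 0.0202). This call was lost without R5044, R4210 or R4817, with log2 fold changes of -7.60 to -7.30. BnaA10T0007000ZS had 4.21, 4.97 and 4.9 CPM in R4168, 10.2, 27.7 and 17.5 in R4210 and 15.2, 19.5 and 15.03 in R4817. It was at 0 counts in the 6 libraries of R5159 and R5161 and between 0.0603 and 0.109 CPM in R5044, with a log2 fold change of -8.70 (edgeR adjusted p = 0.0268). The call of this last gene was lost when R5159, R5161, R4210 or R4817 was left out, with log2 fold changes of -8.51 to -8.11 in those fits.

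In windows of 100 gene numbers, most windows differed little between accessions, and the 3 largest shifts lay at the chromosome ends. For each accession the median over a window's tested genes of its log2(CPM + 0.1) minus the median of the other 5 accessions was taken. Because of the added 0.1, such differences are too small for genes with low counts. Of 384 pairs of a window and an accession, 331 lay within 0.25 of 0 and 10 were at or past 0.5, which is 2.60% against 8.47% of the pairs over all chromosomes. Of the 10, 4 were lower and 6 higher, with 4.35% and 4.12% over all chromosomes. C09 had 1 of the 10, and R4168 had none. Within A10, R5044 was higher at 2501 to 2600 (0.56), R5161 at 1401 to 1500 (0.55), and R4817 at 101 to 200 (0.56) and 501 to 600 (0.55). R5159 was lower at 501 to 600 (-0.57) and R4210 at 2101 to 2200 (-0.58).

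The remaining 4 shifted pairs lay at the chromosome ends. In R4210 the A10 windows 2901 to 3000 and 3001 to 3021 had medians of -0.52 and -3.68, and the last C09 window, 6201 to 6245, had a median of 1.28. The sum of A10 2901 to 3000 was not lower in R4210 (log2 fold change 0.28, edgeR adjusted p = 0.0041), but this rested on 1 gene. That gene held 21.7% of the window's counts over all accessions together. Without it R4210 had the lowest sum, 1018 CPM, with 1090 to 1532 in the others. In R4817 the last A10 window stood at 1.32, a value measured against a median of 5 that includes the low levels of R4210, R5159 and R4168. Summed over the last A10 window, R4210 had 21.7 ± 3.38 CPM, R5159 43.0 ± 17.1, R4168 45.2 ± 4.04, R4817 91.7 ± 4.74, R5044 95.1 ± 5.02 and R5161 102.7 ± 8.94 (SD, n = 3 libraries). R4210 was below the rest (log2 fold change -1.68 against the mean of the other 5, edgeR adjusted p = 1.6e-06). R5159 and R4168 did not differ beyond their spread, and neither did R4817, R5044 and R5161. Summed over the last C09 window, R4210 had 617 ± 56.9 CPM, R4817 348 ± 55.8, and the other 4 accessions between 216.7 and 240.6 (R4210 log2 fold change 1.33, edgeR adjusted p = 1.9e-09). A call on a window sum alone was common. Of the 64 member windows edgeR called 28 different from the other 5 in R5044 (48.1% over all chromosomes), 39 in R5159 (54.6%), 40 in R5161 (56.8%), 33 in R4168 (47.2%), 37 in R4210 (55.5%) and 41 in R4817 (49.2%).

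**Figure D2:**
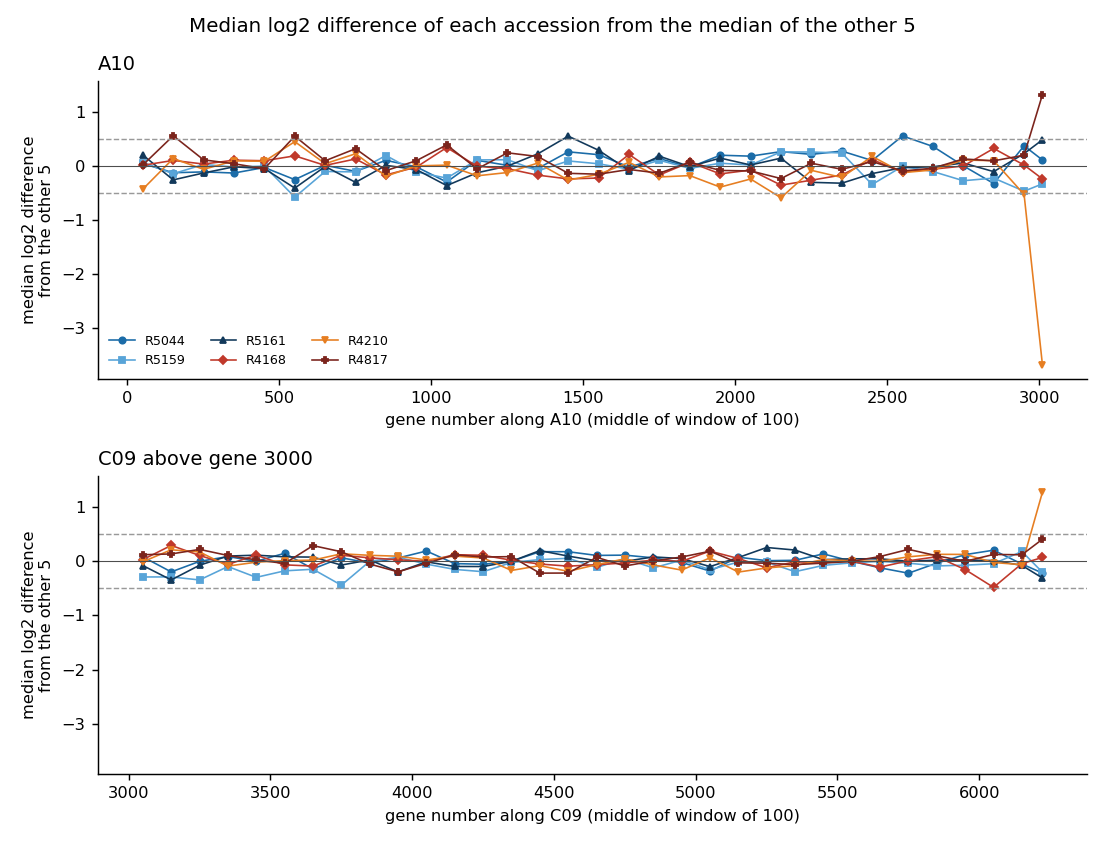
Median log2 difference of each accession from the median of the other 5, over the tested genes of windows of 100 gene numbers along A10 (top) and C09 above gene 3000 (bottom); dashed lines mark 0.5 and -0.5. Nearly all points lie between the dashed lines, and R4210 leaves them at both ends, with -3.68 on A10 and 1.28 on C09.

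Of the 4 low windows, only the last of A10 in R4210 was met by a high window on the partner. Since it is not known here which A10 gene pairs with which C09 gene, 3 placements were tried: gene numbers counted from the chromosome ends, numbers scaled along the regions, and the same scaling reversed. Counted from the end and scaled, the last A10 window fell on the last C09 window. Reversed, it did not meet a high window. The other 3 low windows met none at or past 0.5 under any placement.

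A finer search, added after the data were seen, looked for runs of low genes. A gene counted as low in an accession when its mean lay at least 4-fold below that of the accession ranked 3, which had to reach 1 CPM, and a run needed 5 or more such genes with gaps of at most 2. The members held 10 runs with 127 low genes, of 229 runs over all chromosomes. R4168 had 4 runs holding 1.84% of its scored member genes, with 1.67% over all chromosomes. R4210 had 2 (1.41%, with 2.35% over all), R5161 2 (0.428%, with 2.62% over all), R5159 1 (0.263%, with 2.05% over all), R4817 1 (0.230%, with 0.344% over all) and R5044 none (3.51% over all). Hence only R4168 had at least as large a share here as elsewhere. Of the 10 runs, 6 reached into the last 200 gene numbers of either chromosome.

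The end of A10 held 3 runs, and all 3 began at gene 2966. In R4210 the run went on to gene 3019 and held 30 low genes of 33 scored. In R4168 it ended at gene 2988 with 16 of 17, and in R5159 at 2986 with 8 of 15. In R4210 23 of the 33 genes had at most 3 counts over the 3 libraries together. The C09 end held runs in R4168 at 6138 to 6168 (16 of 18 genes), 6053 to 6089 (15 of 16) and 5929 to 5950 (9 of 11), in R4210 at 6130 to 6152 (13 of 15) and in R4817 at 5850 to 5863 (7 of 8). Away from the ends, R5161 had runs on A10 at 433 to 460 (7 of 11) and 502 to 511 (6 of 7). Since these stretches were chosen for being low, their levels below are a description, with no test.

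**Figure D3:**
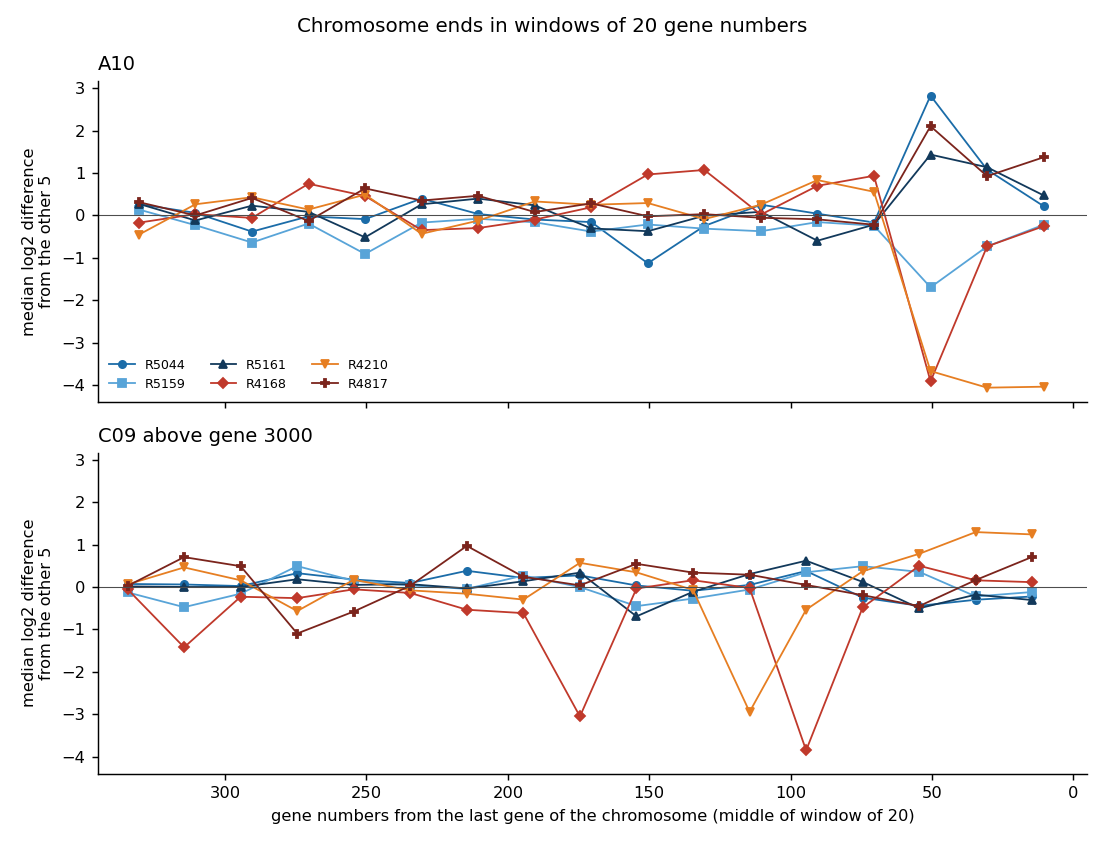
Median log2 difference of each accession from the median of the other 5 in windows of 20 gene numbers, by distance from the last gene of A10 (top) and of C09 (bottom). On A10, R4168 and R4210 drop to -3.91 and -3.67 about 50 gene numbers from the end, and R4210 stays low to the end; on C09, R4168 drops to -3.85 and -3.05 and R4210 to -2.94 farther from the end, where their A10 values are near or above 0.

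For each low stretch, the C09 or A10 windows of 20 gene numbers within 60 of the position counted from the chromosome end were searched for the highest partner. The stretch boundaries where runs overlapped gave 10 pieces. The best partner, the highest of 5 to 9 windows, reached a median of 0.5 or more in 7 pieces and stayed below it in 3. The accessions without the run gave a yardstick: for 3 pieces none of them reached the chosen value in any window searched, and for the other 7 at least 1 did. These 3 were A10 2989 to 3019, C09 6053 to 6089 and C09 5929 to 5950. Because of the search, a partner above 0.5 is a description. Sums below leave out the most abundant gene of a stretch or window, and are means of 3 libraries with their SD. Medians are taken over the tested genes of a stretch, against the mean log2(CPM + 0.1) of the accessions without the run.

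From A10 2989 to 3019, R4210 was nearly without transcripts. It had 21.2 ± 3.58 CPM, against 121 ± 0.844 in R4817, 131 ± 6.12 in R5044 and 138 ± 11.3 in R5161, and 1 of the 34 models reached 1 CPM against 14 to 17 in the other accessions. R4168 (70.9 ± 3.73) and R5159 (65.8 ± 23.3) stood between these levels. The median over tested genes was -4.07 in R4210. A single gene gave 21.1 CPM of R4210's sum and was higher there than in the other 5 accessions (2.18 to 12.3 CPM). The rest of the stretch summed to 0.133 ± 0.0624 CPM in R4210. On C09 6201 to 6220 the same accession had 255 ± 34.5 CPM, against 99.7 to 144 in the others, with a median of 1.21 and 13 of 16 tested genes above all 5 other accessions. R4168 and R5159, at 116 ± 4.09 and 104 ± 14, were not above the rest there. Taken over both stretches, A10 made up 7.70% ± 0.917 of the counts in R4210 and 37.9% to 57.0% in the others. Without that single gene the share of R4210 was 0.0541% ± 0.0309. In the partner search the highest value of an accession without the run was 1.10, in R4817 from C09 6141, near the 1.21 of R4210.

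From A10 2966 to 2986 the accessions other than R5159 were either well expressed or nearly silent. The libraries of R5159 ran from nearly silent to levels between these kinds. The 3 libraries of R4168 had 3.60, 3.80 and 4.001 CPM and those of R4210 4.59, 4.85 and 3.97. Those of R5044 had 318, 373 and 333, those of R5161 232, 225 and 221, and those of R4817 268, 201 and 224. No library of R4168 or R4210 came near these 9, and their medians were -4.69 and -4.55. The left-out most abundant gene did not follow the stretch: with it, the stretch summed to 378.8 ± 124 CPM for R4168 and to 822.8 ± 138 for R4210, where R5044 had 391.5 ± 26.6, R5161 301.8 ± 8.52 and R4817 954.2 ± 88.1. That gene was higher in all 3 haplotype 2 accessions (375.0, 818.3 and 723.6 CPM in R4168, R4210 and R4817) than in haplotype 1 (39.2 to 75.8).

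The highest partner window in reach of this stretch, C09 6181 to 6200, was high in the accessions that were low on A10. R4168 had 338, 308 and 307 CPM and R4210 357, 346 and 331, while the 9 libraries of R5044, R5161 and R4817 lay between 165 and 205. The groups did not overlap. The medians against these last 3 accessions were 0.98 in R4168, 0.92 in R4210 and 0.80 in R5159. Of 16 tested genes, 11, 12 and 9 lay above all 3. The medians of the low accessions had a mean of 0.90. In the same search R4817, which was not low on this A10 stretch, reached 0.94 from C09 6221. A10 held 1.19% ± 0.118 of the counts of this pair in R4168 and 1.28% ± 0.0978 in R4210, against 53.8% to 65.9% in R5044, R5161 and R4817.

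The 3 libraries of R5159 differed from each other over the A10 stretch. Library 1 had 173 CPM, library 2 had 2.52 and library 3 had 83.4, with 16, 1 and 12 of the 21 models at 1 CPM or more. On C09 6181 to 6200 the order was turned round, with 252 CPM in library 1, 346 in library 2 and 329 in library 3. A10 thus made up 40.6%, 0.722% and 20.2% of the pair in libraries 1, 2 and 3. Library 2 was at the level of R4168 and R4210 on both chromosomes, and library 1 lay between them and the rest. When the run search was repeated on single libraries, library 2 had a run from 2966 to 2988 in which 17 of 17 genes were low, and libraries 1 and 3 had none there. The accession mean of R5159 over this stretch, a median of -2.17, was -1.06 without library 2 and -3.23 without library 1.

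**Figure D4:**
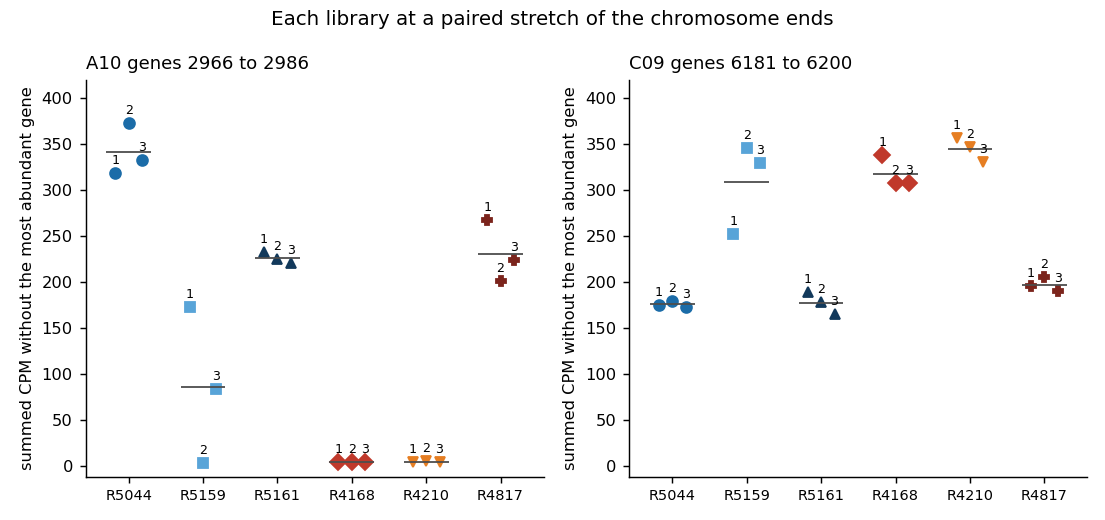
Summed CPM, without the most abundant gene, of A10 genes 2966 to 2986 (left) and C09 genes 6181 to 6200 (right) in each of the 18 libraries; numbers are replicate numbers and bars are means. R4168 and R4210 lie near 0 on the left and above 300 on the right, and the libraries of R5159 spread from 2.52 to 173 on the left.

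This spread within R5159 was not limited to that stretch. Among member genes with a library at 1 CPM or more, 5.90% of those in R5159 differed at least 4-fold between its highest and lowest library, with 5.48% over all chromosomes. The share was 3.11% in R4817 (6.52% over all), 1.70% in R5161 (1.95% over all), 1.27% in R4168 (1.59% over all), 0.796% in R4210 (1.49% over all) and 0.518% in R5044 (1.49% over all). The 31 runs of single libraries on the members included 4 that were found in only 1 library of their accession, of 122 such runs over all chromosomes. Whether the plants sampled for R5159 and R4817 were uniform was not tested.

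The mirror image, low on C09 and high on A10, was seen in R4168 and partly in R4210. From C09 6153 to 6168, R4168 had 1.78 ± 0.427 CPM where the other 5 had 151 to 230, with 11 of 14 tested genes below all of them. The highest partner in reach, A10 2881 to 2900, had 249 ± 10.8 CPM in R4168, 182 ± 13.4 in R4817, 170 ± 10.2 in R4210 and between 58.2 and 81.4 in haplotype 1. So R4168 was highest there, while both other haplotype 2 accessions were also above haplotype 1. The median of R4168 against the other 5 was -3.61 on C09 and 1.18 on A10. In the same search 3 of the 5 other accessions reached this A10 value in some window, with R4817 highest, at 1.99 from A10 3001.

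Next to it, C09 6138 to 6152 was low in both R4168 (29.0 ± 1.39 CPM) and R4210 (34.4 ± 1.81), and the other 4 had 140.9 to 241.2. On A10 2861 to 2880, R4168 had 172 ± 3.81 CPM and R4210 120 ± 5.65, against 109 ± 1.05 in R4817, 102 ± 11.5 in R5159, 81.0 ± 4.2 in R5161 and 50.7 ± 4.83 in R5044. R4168 was clear of all others here. The libraries of R4210, at 116 to 126, lay only a little above those of R4817 and R5159, which reached 110. The medians of R4168 and R4210 in this window had a mean of 0.89. Of the 4 accessions without the run 1 reached that value in the search, R5044 with 1.31 from A10 2961. From C09 6130 to 6137, R4210 alone was low, at 1.86 ± 0.187 CPM against 37.4 to 49.3. Its best partner, A10 2921 to 2940, had 201 ± 9.21 CPM in R4210 but also 197 ± 5.69 in R4168, which was not low on C09 there, and 130 to 163 in the rest. The median of R4210 in that window was 0.80. In the same search 4 of the 5 other accessions reached this value, with R5044 highest, at 1.74 from A10 2961.

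Farther in, R4168 was low at C09 6053 to 6089, with 15.3 ± 1.64 CPM against 135 to 166, and 16 of 21 tested genes lay below all 5 others. The same A10 window, 2881 to 2900, was its highest partner, so 1 window served 2 stretches. Counted from the chromosome end, this stretch falls on A10 2829 to 2865, and C09 6153 to 6168 falls on A10 2929 to 2944. Of the adjoining stretches, C09 6130 to 6137 took A10 2921 to 2940 and 6138 to 6152 took the lower-numbered 2861 to 2880. The chosen windows thus did not keep the gene order of the C09 stretches, and which of them are true partners was not tested. At C09 5929 to 5950 R4168 had 12.7 ± 0.935 CPM against 65.2 to 125. A10 2761 to 2780 had 154 ± 7.93 CPM in R4168 against 66.4 to 108 in the others, with 9 of 15 tested genes above all 5. R4210 (108 ± 9.54) and R4817 (104 ± 7.62) also lay above haplotype 1 (66.4 to 84.0). In the same search R4210, which was not low on this C09 stretch, reached 0.71 in this window, near the 0.80 of R4168. Over this pair A10 made up 92.4% ± 0.899 of the counts in R4168 and 45.4% to 52.3% in the others. Between these low stretches the C09 genes of R4168 were near the other accessions, with medians of 0.16 at 6101 to 6120 and -0.14 at 6001 to 6020 in windows of 20.

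Of the low stretches, 3 had no raised partner. R4817 had 7.52 ± 1.7 CPM at C09 5850 to 5863 against 42.2 or more in the others, and its highest partner median was 0.23, at A10 2601 to 2620. R5161 was low at A10 502 to 511 (14.97 ± 1.83 CPM) and 433 to 460 (53.0 ± 5.7). R5044 did not differ from it there beyond their SD, at 14.9 ± 1.34 and 56.1 ± 2.49, and haplotype 2 had 60.3 to 77.1 and 91.7 to 119. R5159 had 46.4 ± 9.86 and 99.1 ± 22.2, the first between the other groups and the second within the range of haplotype 2. By the median over tested genes, all haplotype 1 accessions were low at 502 to 511. These medians were -1.65 in R5044, -1.81 in R5159 and -1.98 in R5161, and 0.95 to 1.32 in haplotype 2. At 433 to 460 the median of R5159 was -0.03, with -1.25 in R5044 and in R5161. The highest partner medians of R5161 were 0.21 and 0.34, and 4 and 3 of the 5 other accessions reached these values in the same search.

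The balance of the chromosome ends was less even than that of the rest. The rest is a far longer span, which evens out single genes, and other spans of 100 were not compared. Leaving out the last 200 gene numbers of each chromosome, A10 held 48.6% to 51.1% of the counts in the 6 accessions. In those last 200 it held 53.3% in R5044, 43.1% in R5159, 52.6% in R5161, 58.8% in R4168, 49.0% in R4210 and 52.8% in R4817. R4210 was thus near equality over 200 gene numbers, and R4168 had the most A10. In the last 100 gene numbers it held 56.0% ± 0.692 in R5044, 52.8% ± 0.741 in R5161, 56.7% ± 1.66 in R4168 and 56.1% ± 0.714 in R4817, but 44.6% ± 1.52 in R4210 and 39.6% ± 6.35 in R5159. These sums keep the abundant gene that was left out of the A10 2966 to 2986 sums, and the order of the accessions depended on it. Without that gene, an alternative added after the data were seen, A10 held 55.0% ± 0.743 in R5044, 51.0% ± 0.829 in R5161, 48.5% ± 0.759 in R4168, 41.7% ± 2.61 in R4817, 38.5% ± 6.43 in R5159 and 26.5% ± 1.24 in R4210. R4210 and R5159 had less A10 than R5044, R5161 and R4168 either way, R4817 only without the gene, and the SD of R5159 was the widest in both. The last 100 gene numbers also hold most of the low C09 run of R4168 that ends at 6168.

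**Figure D5:**
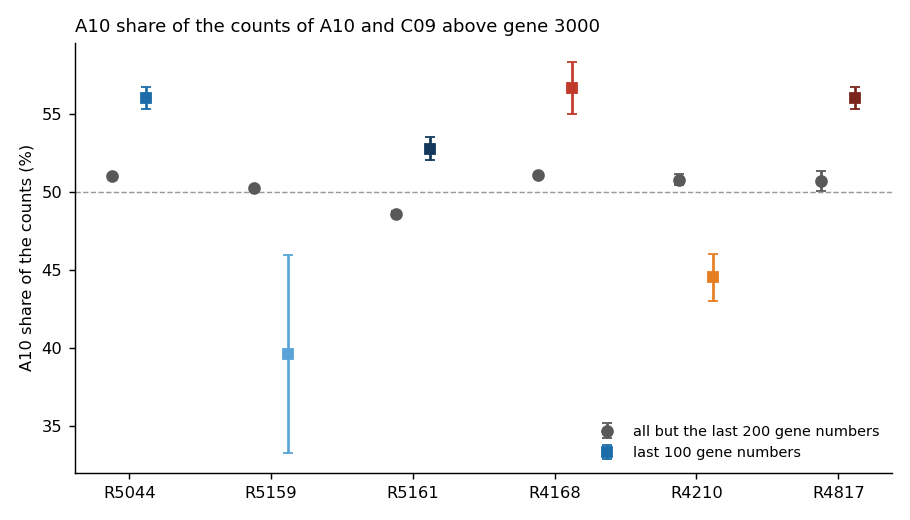
Share of A10 in the counts of A10 and C09 above gene 3000 (percent; mean and SD of 3 libraries) in each accession, for all but the last 200 gene numbers (grey circles) and for the last 100 (coloured squares). The circles lie between 48.6% and 51.1%, and among the squares, which include 1 abundant A10 gene that is high in haplotype 2, R4210 (44.6%) and R5159 (39.6%) lie below the dashed line at 50%.

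Between haplotypes, 11 of the 64 member windows of 100 were called by edgeR on accession sums at an adjusted p under 0.05, 7 of 31 on A10 and 4 of 33 on C09, where 11.6% of all windows were called. Of the 11, 5 were higher in haplotype 1 (7.53% over all chromosomes) and 6 lower (4.12% over all). Higher in haplotype 2 were A10 401 to 500 (971 ± 7.3 against 1632 ± 220 CPM, log2 fold change -0.71, adjusted p = 0.0206) and its neighbour A10 501 to 600 (640 ± 16.4 against 1052 ± 59.7, -0.69, adjusted p = 0.0077). The most abundant gene held 31.7% of A10 401 to 500, and without it haplotype 1 had 756 to 790 CPM and haplotype 2 904 to 1070. The medians over the genes of that window overlapped, at -0.05 to 0 in haplotype 1 and -0.05 to 0.10 in haplotype 2. Without the most abundant gene of the window, A10 501 to 600 still had 551 to 571 CPM in the haplotype 1 accessions and 858 to 904 in haplotype 2, so the accessions did not overlap. Higher in haplotype 1 were C09 4401 to 4500 (1713 ± 43.3 against 1183 ± 124, 0.56, adjusted p = 0.0242) and A10 1501 to 1600 (2092 ± 125 against 1467 ± 35.8, 0.54, adjusted p = 0.0185). In both of these the haplotypes also did not overlap without the most abundant gene.

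The largest haplotype difference of a window rested on 1 gene. A10 2601 to 2700 had 627 ± 120 CPM in haplotype 1 and 1606 ± 627 in haplotype 2 (log2 fold change -1.31, edgeR adjusted p = 0.0496). Its most abundant gene held 49.8% of the counts, and without it the accessions ranged from 539 to 662 CPM in haplotype 1 and from 486 to 624 in haplotype 2, which overlap. C09 5801 to 5900 was also higher in haplotype 2 (894 ± 60.9 against 1528 ± 312 CPM, -0.74, edgeR adjusted p = 0.0364). There the most abundant gene held 21.3%, and without it the accessions had 826 to 901 CPM in haplotype 1 and 1025 to 1064 in haplotype 2. The other called windows were A10 801 to 900, A10 2101 to 2200 and C09 3301 to 3400, higher in haplotype 1 with log2 fold changes of 0.40 to 0.48, and A10 901 to 1000 and C09 3201 to 3300, with -0.42 and -0.32.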

How the data were processed

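The deposited values are raw counts, whole numbers per gene model without normalization, in a single table with a column for each of 18 libraries. The submitters' processing notes name HISAT2 2.2.1 and featureCounts. Genome build, annotation, strandedness and the handling of multi-mapping reads were not given in the sources used, so A and C copies may share reads. No column of another series was present. Columns were assigned by accession and replicate in the titles. No pair of libraries within an accession was identical (chi-square over degrees of freedom at least 5.34).

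CPM is the count per 1000000 of a library's total. Tests were run on the whole table in R 4.3.3 with edgeR 4.0.16 (quasi-likelihood, TMM, filterByExpr), with Benjamini-Hochberg adjustment over all tested models or windows: 1 coefficient per accession over 18 libraries, and haplotypes as 3 against 3 accession sums. Windows needed 15 tested models (5 in windows of 20). Shares used exact permutation tests (scipy 1.17.1). The fits were run on simulated counts with planted changes. These counts held no added spread between accessions, so they do not check the error of the haplotype test. DESeq2 1.42.0, RLE factors, no filter, other windows and left-out libraries or accessions were alternatives. Low runs, windows of 20 and partner searches were added after seeing the data, and the members and lists were chosen with earlier results of these data known. Named genes are the 2 highest and 2 lowest log2 fold changes among called members with a mean of at least 5 CPM. Intervals of counting error were not used; depth limits genes below 1 CPM most.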

Additional observations from a re-analysis of the deposited data

How the results depend on the processing

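The 564 haplotype calls became 1403 with DESeq2 and 30 to 338 when an accession was left out (30 without R4210, 145 without R5161, 154 without R5159, 157 without R5044, 200 without R4817). With 9 against 9 libraries they became 1670 without and 1619 with the replicate block. The replicate numbers did not pair the samples: of 45 correlations between same-numbered libraries 2 were over 0.1 (-0.149 to 0.212), and the block moved no other count by over 1.5 times. Calls of at least 2-fold against the other 5 numbered 583 in R5044, 760 in R5159, 833 in R5161, 768 in R4168, 1023 in R4210 and 834 in R4817, where the size limit itself removes calls. With windows of 200 gene numbers, 25.8% were called in R5044 and 32.3% in R4168. For the alternative settings of this paragraph, shares over all models or windows are not given. These values thus do not compare the regions with the other chromosomes. The share of windows called between haplotypes, 17.2%, was 9.38% without the most abundant gene and 1.56% to 9.38% when an accession was left out. The A10 share difference turned to 0.46 points without the 10 most abundant genes and to 0.0476 for genes at 1 CPM. Shifted pairs, 2.60% as reported, were 0.781% with a pseudocount of 1 CPM, with a threshold of 0.75 or with every model with a count, 5.20% in windows of 50, 0% in windows of 200 and 11.7% in windows of 20. Low runs fell to 5 with 10 low genes required and were 7 to 11 otherwise. The partner median of R5161 at C09 3581 to 3600 turned to -0.0859 with every model with a count. For these changes the cause was not tested beyond what each setting does. BnaC09T0603200ZS was called in all 12 of its alternatives, BnaA10T0095200ZS in 10, BnaA10T0205600ZS in 9 and BnaA10T0007000ZS in 8 of 12. A pseudocount of 1 CPM shrank the low medians, to -1.45 in R4210 at A10 2989 to 3019.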

Other observations

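One short stretch separated the accession means of the haplotypes, though library 2 of R5159 was as low as haplotype 2. At C09 4705 to 4708, 3 adjoining expressed genes summed to 19.2, 21.9 and 24.6 CPM in R5044 and 11.5, 16.6 and 13.1 in R5161, and to at most 0.0884 CPM in each of the 9 haplotype 2 libraries. In R5159 the libraries again differed, with 19.1 CPM in library 1, 0 in library 2 and 3.33 in library 3. Stretches of 3 or more such genes, with the haplotypes at least 4-fold apart, numbered 4 higher in haplotype 1 and 50 higher in haplotype 2 over all chromosomes, and this was the only one on the members. It was found after the data were seen and carries no test.

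Besides library 2 of R5159, single libraries stood apart at 2 other places. Library 3 of R5159 had 5.93 CPM over 6 genes at C09 3315 to 3341, where libraries 1 and 2 had 28.3 and 32.3, and all 6 genes were low. Library 2 of R4817 had 74.8 CPM over 13 genes at C09 5964 to 5987, where libraries 1 and 3 had 197 and 135, and 10 of the 13 were low. In the A10 windows searched for a partner, the highest median of the library over the other libraries of its accession was 0.11 for the first and 0.25 for the second. The fourth run in a single library, R5044 library 1 at A10 433 to 460, differed by -0.03 from the other libraries of R5044.

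Over all A and C chromosomes, A genes held 48.4% ± 0.833 of the counts in haplotype 1 and 46.3% ± 0.913 in haplotype 2 (exact two-sided permutation p = 0.1, the smallest possible), while the A10 share of the members was lower in haplotype 1 by 1.11 percentage points. The 2 values are given side by side and the difference between them was not tested.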
